A study of Homo sapiens with 12 samples.

Results

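The genes described here encode the subunits of the proteasome, the protease that degrades ubiquitin-tagged proteins. They were taken as 35 listed gene symbols, and each symbol was matched to its Ensembl row in a table of 57820 gene rows. A row was found for 34 of the 35, namely 7 of 7 alpha-ring and 6 of 7 beta-ring genes of the 20S core, 6 of 6 ATPases and 11 of 11 non-ATPases of the 19S cap, and 4 of 4 activators. PSMB3 matched no row and is named only. All 34 matched genes passed the filter on low counts.

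Polyadenylated RNA was sequenced from 12 cultures of 3 established cancer cell lines, A549 (lung), SKOV3 (ovary) and MDA-MB-231 (breast). Each line carried a stably integrated lentiviral vector under puromycin selection, either with MYC (the pCDH-puro-cMyc vector, called MYC cells here) or without it (pCDH-CMV, called control cells), so control cells had also been transduced. Cells of both kinds were kept for 48 h in tipifarnib, an inhibitor of protein farnesyltransferase, or in the solvent DMSO, and the dose was 10 µM in A549 and 20 µM in SKOV3 and MDA-MB-231. This gave MYC cells with tipifarnib, MYC cells with DMSO, control cells with tipifarnib and control cells with DMSO, each with 3 libraries, 1 per line. The replicates of a group are therefore different lines, and a p-value reflects only how far these 12 samples differ among themselves. Dose and line cannot be told apart.

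The proteasome consists of a barrel-shaped 20S core, in which the beta subunits PSMB5, PSMB6 and PSMB7 cut peptide bonds, and of caps that open the alpha-ring gate. The 19S cap binds ubiquitin chains, removes them and unfolds the substrate with a ring of ATPases, while PSME1 to PSME4 form other caps that act without ubiquitin. When proteasome activity falls, the transcription factor NFE2L1 is cleaved by DDI2 and raises the transcription of proteasome genes through antioxidant response elements bound together with small MAF proteins. MYC, a transcription factor that binds the E-box CACGTG, is known for raising genes of growth and protein synthesis.

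Gene counts per library ranged from 20481363 to 26962994. MYC itself had 506, 610 and 1593 CPM (counts scaled to a common library size with TMM factors) in MYC cells with tipifarnib and 912, 494 and 709 CPM in MYC cells with DMSO, in the order A549, SKOV3 and MDA-MB-231. In control cells it had 143, 99.7 and 349 CPM with tipifarnib and 105, 48.4 and 148 CPM with DMSO, so every MYC library stood above its own control library (log2 fold change 2.61 ± 0.24 (SE), adjusted p = 0.00745). The line markers matched the labels in part. ALDH1A1 was at 7911 to 9378 CPM in A549 and at most 9.5 CPM elsewhere, and ERBB2 was at 1169 to 5747 CPM in SKOV3 and at most 131 CPM elsewhere. AKR1B10 and AKR1C2 were also highest in A549, PAX8 in SKOV3 and ZEB1 in MDA-MB-231. The A549 marker AKR1C1 was at 259 to 562 CPM in SKOV3, against 171 to 330 CPM in A549. The A549 marker SLPI was at 35.3 to 44.4 CPM in SKOV3, against 2.68 to 49 CPM in A549. VIM was at 887 to 1408 CPM in MDA-MB-231, where CDH1 and ESR1 did not exceed 0.144 and 0.275 CPM, but it also reached 1021 CPM in SKOV3. The MDA-MB-231 markers MSN and CAV1 reached 995 and 1084 CPM in SKOV3, against 778 and 716 CPM in MDA-MB-231. GRB7 was above its level in A549 only in the SKOV3 libraries with DMSO. The blood cell markers PTPRC, CD3E, CD68 and HBB did not exceed 0.93 CPM in any library.

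Upstream sequence is shown for 5 genes on which the results turn. They are PSMB5, which passed the tests for both tipifarnib and MYC, PSMD1 and PSMA3, which fell with tipifarnib, PSMC4, which rose with tipifarnib in SKOV3 alone of the 3 lines, and PSME3, which fell most in MDA-MB-231 and holds an E-box. Each run is the 250 bases before a transcription start of RefSeq on GRCh38.p14, written 5′ to 3′ along the gene, and PSMB5 has a second start whose window is not shown. Capitals mark matches to CACGTG, TGANNNNGC (the core of the antioxidant response element) or CCAAT, each read on both strands.
PSMB5 promoter (chr14:23035221-23035470, minus strand): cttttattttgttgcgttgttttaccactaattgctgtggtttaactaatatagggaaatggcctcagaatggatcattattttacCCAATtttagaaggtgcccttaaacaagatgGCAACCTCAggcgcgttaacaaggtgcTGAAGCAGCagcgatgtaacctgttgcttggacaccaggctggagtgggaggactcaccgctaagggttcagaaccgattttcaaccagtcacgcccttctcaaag
PSMD1 promoter (chr2:231056617-231056866, plus strand): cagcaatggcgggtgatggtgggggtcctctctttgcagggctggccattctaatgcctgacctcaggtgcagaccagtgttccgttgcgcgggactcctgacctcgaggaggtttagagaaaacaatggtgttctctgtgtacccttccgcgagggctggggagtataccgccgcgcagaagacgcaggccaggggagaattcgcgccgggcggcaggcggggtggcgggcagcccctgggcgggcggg
PSMA3 promoter (chr14:58244593-58244842, plus strand): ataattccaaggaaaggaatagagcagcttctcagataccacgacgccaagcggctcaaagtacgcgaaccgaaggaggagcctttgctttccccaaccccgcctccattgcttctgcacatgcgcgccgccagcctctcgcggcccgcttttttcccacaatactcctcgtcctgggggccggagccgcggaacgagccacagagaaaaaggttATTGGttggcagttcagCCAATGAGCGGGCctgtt
PSMC4 promoter (chr19:39970915-39971164, plus strand): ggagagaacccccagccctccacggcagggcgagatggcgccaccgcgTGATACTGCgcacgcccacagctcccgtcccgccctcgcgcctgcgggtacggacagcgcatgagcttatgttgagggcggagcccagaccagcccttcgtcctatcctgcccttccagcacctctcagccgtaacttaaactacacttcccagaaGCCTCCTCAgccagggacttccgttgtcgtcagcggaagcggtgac
PSME3 promoter (chr17:42833147-42833396, plus strand): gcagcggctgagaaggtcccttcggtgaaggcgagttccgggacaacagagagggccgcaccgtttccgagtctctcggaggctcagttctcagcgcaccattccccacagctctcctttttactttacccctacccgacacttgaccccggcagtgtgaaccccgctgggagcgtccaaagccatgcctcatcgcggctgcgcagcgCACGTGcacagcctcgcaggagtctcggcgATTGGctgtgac

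RefSeq windows of 300 bases, running from 250 bases before to 50 bases after a start, were found for 30 of the 35 genes, in all 36 windows. CACGTG was present in 2 of these 36 windows, those of PSMB3 and PSME3, which is 5.556%, against 7.256% of the 35116 windows of all genes. TGANNNNGC was present in 22 of 36 (61.11%), against 41.84% of all windows, and CCAAT in 16 of 36 (44.44%), against 34.61%. Matches to different motifs were counted separately, also where their letters overlap. PSMD1 had none of the motifs in its 250 bases. PSMB5 had TGANNNNGC at 2 places and CCAAT at 1 place in the window shown, and TGANNNNGC at 1 place in its second window. Whether the motifs go with the response to tipifarnib was not tested. A match is a match of letters only, and windows of 1 gene can overlap.

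Most proteasome genes were expressed above the level of the typical gene tested. The median over the 34 genes of the mean level was 169 CPM, against 16.5 CPM over the 17096 genes tested. Per kilobase of exon (GENCODE v29 lengths, in CPM per kilobase), the medians over the 12 libraries ran from 200 for PSMA7, an alpha-ring subunit, and 139 for PSMB7, 122 for PSMB6 and 112 for PSMB4 of the beta ring, down to 12.8 for the ATPase PSMC6, 11.6 for PSME4 and 11.3 for the cap subunit PSMD6. Below these stood PSMA1, PSMA2 and PSMA6 of the alpha ring, at 5.31, 0.646 and 0.119. These 3 genes had only 4981, 955 and 222 counts in all 12 libraries together. In GENCODE v29 the exons of each overlap another gene on the same strand, so their counts are uncertain, and a part of that overlap in the low counts was not tested. PSMA2, PSMC1, PSMC5, PSMD1, PSMD6, PSMD7, PSMD11, PSMD13, PSMD14 and all 4 activators overlap exons of a gene on the other strand, and the strand setting of the counting is not given in the sources used here. PSMC1 also has 13 annotated pseudogenes, which held 2.11% as many counts as the gene itself.

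Tipifarnib lowered single subunits of the core and of the non-ATPase part of the cap, each by less than 1 on the log2 scale. Over both genotypes 5 of 34 genes fell (14.7%, against 6.63% of all genes tested) and 0 rose (4.66% of all genes tested). The 5 were PSMD1 and PSMD11 of the cap, PSMA3 and PSMA4 of the alpha ring and PSMB5 of the beta ring. The fitted log2 fold change was negative in 30 of the 34, with a median of -0.19, against a median of 0.00 over all genes tested, whose quartiles were -0.24 and 0.28. Of the 34 genes 15 reached an unadjusted p under 0.05. The share of all genes tested under that unadjusted p was not taken, here or below, so such counts have no background. In 6 of 6 pairs of libraries 9 genes were lower, where 11.2% of all genes tested were, while 0 were higher (8.49% of all genes tested). The proteasome genes lie above most genes in level, which narrows their error, so the backgrounds include many genes tested with less precision.

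**Figure D1:**
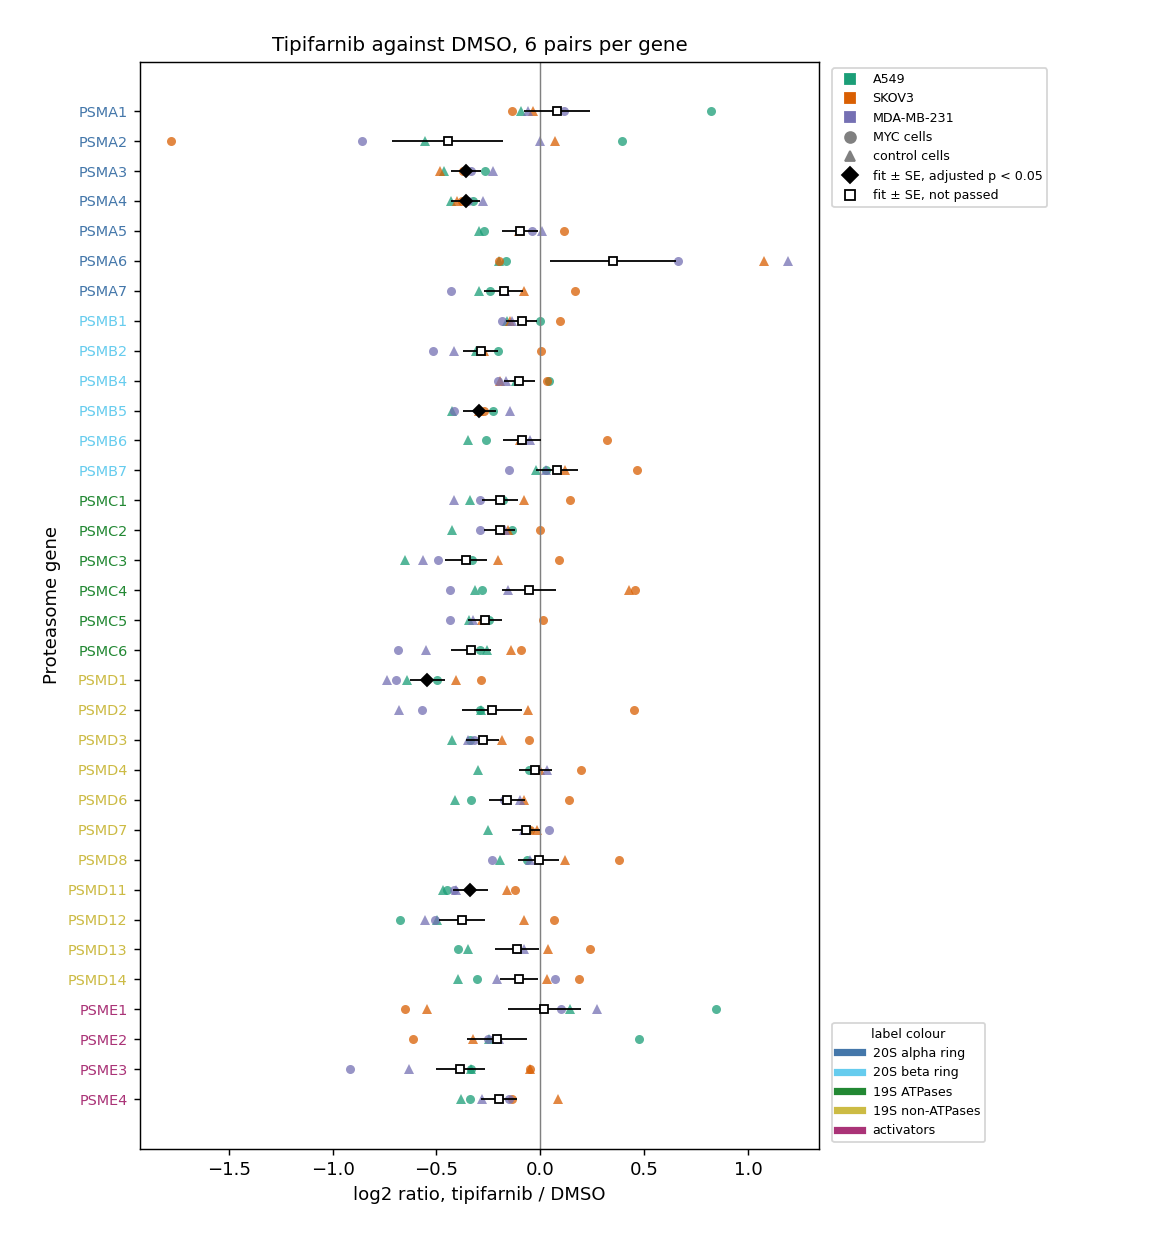
Log2 ratio of tipifarnib over DMSO (x axis) for the 34 proteasome genes (y axis, coloured by role). Small points are the 6 pairs of libraries, coloured by line, and black or open markers are the fitted value ± SE. The 5 filled diamonds, PSMA3, PSMA4, PSMB5, PSMD1 and PSMD11, passed the test and have all 6 pairs below 0.

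PSMD1, the large scaffold of the cap base, changed most. It had 161, 210 and 176 CPM in MYC cells with tipifarnib and 226, 256 and 284 CPM in MYC cells with DMSO (A549, SKOV3, MDA-MB-231). In control cells it had 164, 205 and 194 CPM with tipifarnib and 256, 271 and 323 CPM with DMSO. No tipifarnib library reached the lowest DMSO library, and the fitted change was -0.54 ± 0.08 (SE) on the log2 scale, a fold of 0.69 (edgeR quasi-likelihood test, adjusted p = 0.00463, lower in 6 of 6 pairs). PSMD11, a cap lid subunit, had 251, 208 and 212 CPM with tipifarnib and 342, 226 and 283 CPM with DMSO in MYC cells. In control cells it had 245, 209 and 185 CPM with tipifarnib and 339, 234 and 245 CPM with DMSO, so the SKOV3 pairs differed least (log2 fold change -0.34 ± 0.09, adjusted p = 0.0332).

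Of the alpha ring, which forms the gate of the core, PSMA4 had 340, 189 and 253 CPM with tipifarnib and 425, 246 and 322 CPM with DMSO in MYC cells. In control cells PSMA4 had 309, 184 and 248.6 CPM with tipifarnib and 417, 243 and 301 CPM with DMSO. Within each line both tipifarnib libraries were below both DMSO libraries, while the ranges over lines overlapped (log2 fold change -0.36 ± 0.07, adjusted p = 0.0119). PSMA3 had 129, 84.5 and 143 CPM with tipifarnib and 155, 109 and 180 CPM with DMSO in MYC cells, and 102, 71.3 and 124 CPM with tipifarnib and 141, 99.6 and 145 CPM with DMSO in control cells (log2 fold change -0.36 ± 0.07, adjusted p = 0.0126). The highest and lowest fitted values of the alpha ring were 0.35 ± 0.30 for PSMA6 and -0.44 ± 0.27 for PSMA2, both of the low and uncertain counts, and neither passed.

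Of the catalytic subunits, PSMB5, which cuts after hydrophobic residues and is the main target of bortezomib, had 102, 51.4 and 74.4 CPM with tipifarnib and 119, 61.9 and 99.2 CPM with DMSO in MYC cells. In control cells it had 68.5, 40.8 and 70.6 CPM with tipifarnib and 92.1, 50.04 and 78.1 CPM with DMSO. It was lower with tipifarnib in each pair (log2 fold change -0.29 ± 0.08, adjusted p = 0.0403). PSMB6, which cuts after acidic residues, was at -0.09 ± 0.09 (adjusted p = 0.574), and PSMB7, which cuts after basic residues, was at 0.08 ± 0.10 (adjusted p = 0.647), the highest value of the beta ring. Neither of those 2 differed beyond the spread between pairs, and the difference between PSMB5 and them was not tested.

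None of the 6 ATPases, which unfold the substrate, passed the test in this comparison. They ranged from -0.36 ± 0.10 for PSMC3 (adjusted p = 0.0508) to -0.05 ± 0.13 for PSMC4, 5 of them reached an unadjusted p under 0.05, and PSMC6 at -0.34 ± 0.10 missed the threshold narrowly (adjusted p = 0.0504). Among the 11 non-ATPases the values ran down to PSMD1 from -0.01 ± 0.10 for PSMD8, and all 11 were negative. PSMD12 and PSMD3, further lid subunits, were at -0.38 ± 0.11 (adjusted p = 0.0536) and -0.28 ± 0.08 (adjusted p = 0.0528). Among the activators, PSME3, the nuclear PA28 gamma, was lowest at -0.39 ± 0.12 (adjusted p = 0.0635) and PSME1, PA28 alpha, highest at 0.02 ± 0.18.

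The count of 5 depends on the lines and on the model. Without A549 and without MDA-MB-231 it was 0, and without SKOV3 it was 5, of which only PSMD1 and PSMD11 were among the 5 named here, since PSMA3, PSMA4 and PSMB5 no longer passed. With all lines 1133 of 17096 genes tested fell. The numbers were 478 of 16863 without A549, 63 of 17230 without MDA-MB-231 and 731 of 16751 without SKOV3. DESeq2 and limma-voom each called 12, and a model with each line's own effects called 14, all of them lower. The number of all genes tested that fell was also larger, at 1567 with DESeq2, 1407 with limma-voom and 2576 with each line's own effects. Both pairs taken from 1 line carry the same line's response, while the model counts them as independent, so p-values over both genotypes or both treatments can be too small.

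Summed over the 34 genes, the level was lower with tipifarnib in 5 of 6 pairs. In MYC cells the sums were 6002, 6432 and 6048 CPM with tipifarnib and 7002, 6122 and 7697 CPM with DMSO, in the order A549, SKOV3 and MDA-MB-231. In control cells they were 5395, 5774 and 6014 CPM with tipifarnib and 6785, 6268 and 7530 CPM with DMSO. The changes in MYC cells and control cells were -14.3% and -20.5% for A549 and -21.4% and -20.1% for MDA-MB-231, against 5.07% and -7.87% for SKOV3. On raw gene totals, without TMM factors, each pair kept its direction but the changes were smaller. In MDA-MB-231 the raw sums were 6211 with tipifarnib against 7219 with DMSO in MYC cells, and 6418 against 7168 in control cells. In A549 they were 5637 against 6395 in MYC cells and 5420 against 6373 in control cells. The 34 genes together took 0.542% to 0.722% of gene counts.

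**Figure D2:**
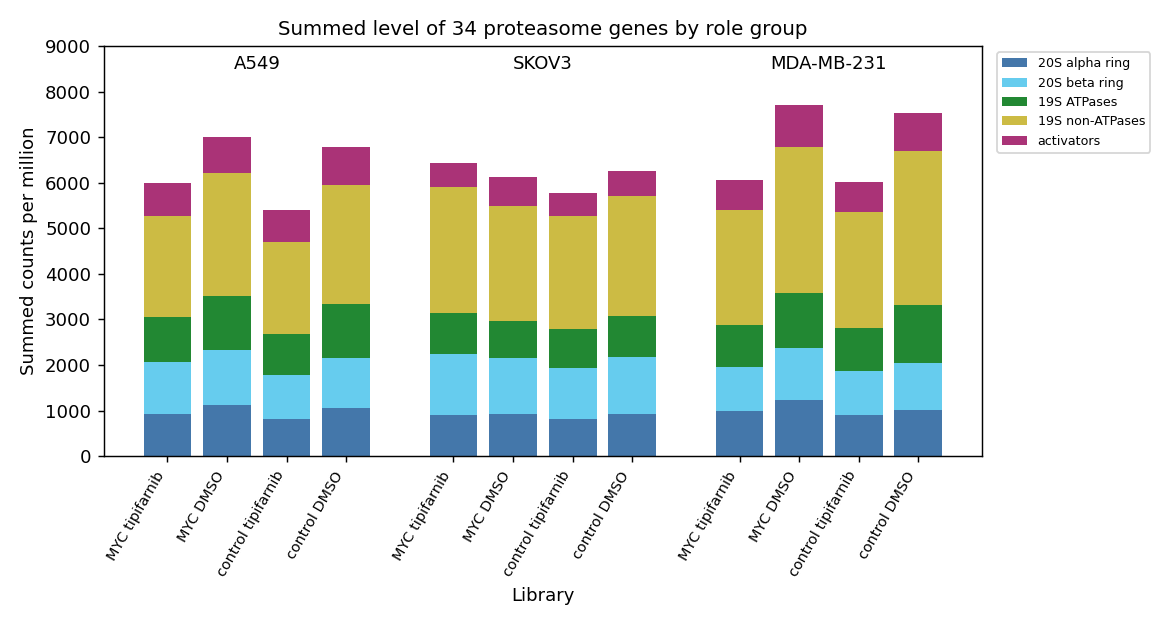
Summed CPM (y axis) of the 34 proteasome genes in each of the 12 libraries (x axis), stacked by role group. With tipifarnib the bar is shorter than with DMSO in 5 of 6 pairs, and in SKOV3 MYC cells it is taller, at 6432 against 6122 CPM.

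The ratio of the summed 19S genes to the summed 20S genes was lower with tipifarnib in A549 and MDA-MB-231. It was 1.54 and 1.64 with tipifarnib against 1.67 and 1.75 with DMSO in A549, and 1.75 and 1.88 with tipifarnib against 1.86 and 2.25 with DMSO in MDA-MB-231, MYC cells first. In SKOV3 it was 1.62 and 1.71 with tipifarnib against 1.56 and 1.63 with DMSO. These ratios are given as values with no test. PSMD2, the cap gene with the most counts in MDA-MB-231, had 630 and 774 CPM with tipifarnib against 936 and 1238 CPM with DMSO there.

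MYC cells differed from control cells in fewer proteasome genes. Over both treatments 1 of 34 genes rose (2.94%, against 4.5% of all genes tested) and 0 fell (2.84% of all genes tested), so the share called was not above the background. That gene was PSMB5, which in tipifarnib had 102, 51.4 and 74.4 CPM in MYC cells and 68.5, 40.8 and 70.6 CPM in control cells, and in DMSO had 119, 61.9 and 99.2 CPM in MYC cells and 92.1, 50.04 and 78.1 CPM in control cells (A549, SKOV3, MDA-MB-231). The log2 fold change was 0.33 ± 0.08 (SE), a fold of 1.26, higher in 6 of 6 pairs (edgeR quasi-likelihood test, adjusted p = 0.0343). The fitted values of 27 of the 34 genes were positive, with a median of 0.11 against 0.00 over all genes tested, and 6 genes were higher in 6 of 6 pairs, where 12.1% of all genes tested were, while 0 were lower in 6 of 6 (9.51% of all genes tested). Without any 1 of the 3 lines the count of genes passing was 0, DESeq2 called 4 and limma-voom 2.

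**Figure D3:**
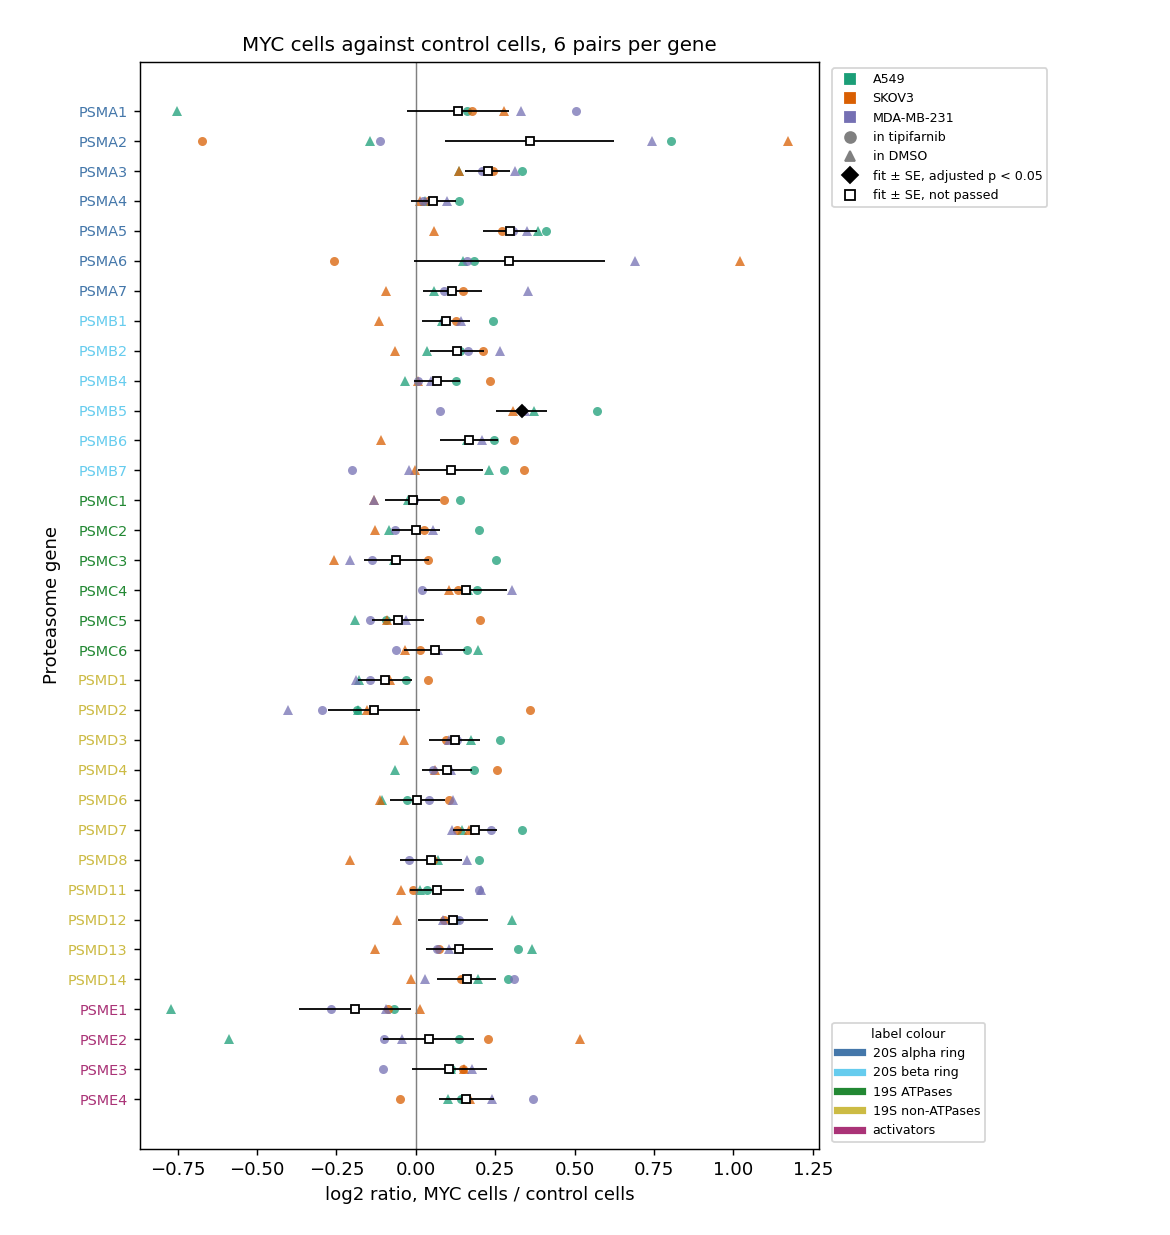
Log2 ratio of MYC cells over control cells (x axis) for the 34 proteasome genes (y axis, coloured by role). Small points are the 6 pairs of libraries and larger black or open markers the fitted value ± SE. PSMB5 alone passed, at 0.33 ± 0.08, and the alpha and beta rings lie on the right of 0 while the ATPases lie around it.

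By role, all 7 alpha-ring genes and all 6 beta-ring genes had positive fitted values in MYC cells against control cells, with medians of 0.23 and 0.12. So did 9 of 11 non-ATPases, with a median of 0.10, 3 of 4 activators, with a median of 0.07, and 2 of 6 ATPases, with a median of -0.00, and differences between role groups were not tested. In the alpha ring PSMA5 was at 0.30 ± 0.09 (adjusted p = 0.0631) and PSMA3 at 0.23 ± 0.07 (adjusted p = 0.0802), and neither passed. The alpha ring ran from PSMA4 at 0.06 ± 0.07 to the poorly counted PSMA2 at 0.36 ± 0.27, and the beta ring from PSMB4 at 0.07 ± 0.07 to PSMB5. PSMB6 was at 0.17 ± 0.09 (adjusted p = 0.291) and PSMB7 at 0.11 ± 0.10 (adjusted p = 0.555). The ATPases ran from PSMC3 at -0.06 ± 0.10 to PSMC4 at 0.16 ± 0.13, the non-ATPases from PSMD2 at -0.13 ± 0.14 to PSMD7 at 0.19 ± 0.07, and the activators from PSME1 at -0.19 ± 0.18 to PSME4 at 0.16 ± 0.09.

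The interaction asks whether tipifarnib moved the genes differently in MYC cells and control cells. It passed for 0 of 34 genes and for 0% of all genes tested with edgeR, with 0 proteasome genes at an unadjusted p under 0.05 and 0 called by DESeq2 or limma-voom. PSMB5 was at -0.02 ± 0.16, PSMB6 at 0.15 ± 0.18 and PSMB7 at 0.08 ± 0.20, and the largest estimate outside the poorly counted genes was 0.25 ± 0.29 for PSMD2. These standard errors leave room for differences as large as the tipifarnib changes themselves. Within control cells tipifarnib lowered 1 gene, PSMD1 (log2 fold change -0.60 ± 0.12, adjusted p = 0.0381), where 1.49% of all genes tested fell, and raised 0, where 0.298% rose. Without any 1 of the lines 0 genes passed, while 4 passed with DESeq2. Of all genes tested 23 passed without A549, 0 without SKOV3, 0 without MDA-MB-231 and 1155 with DESeq2. Within MYC cells 0 passed in either direction (0.404% of all genes tested rose and 0.714% fell), 8 had an unadjusted p under 0.05, and DESeq2 called 3 and limma-voom 0. Of all genes tested DESeq2 called 1021 there and limma-voom 403. PSMD1 within MYC cells was at -0.49 ± 0.12 (adjusted p = 0.0802). MYC within DMSO and MYC within tipifarnib each gave 0 of 34 and 0% of all genes tested, with 1 and 4 proteasome genes at an unadjusted p under 0.05 and 0 by DESeq2 or limma-voom. Of all genes tested DESeq2 called 905 within DMSO and 415 within tipifarnib, and limma-voom 159 and 9.

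**Figure D4:**
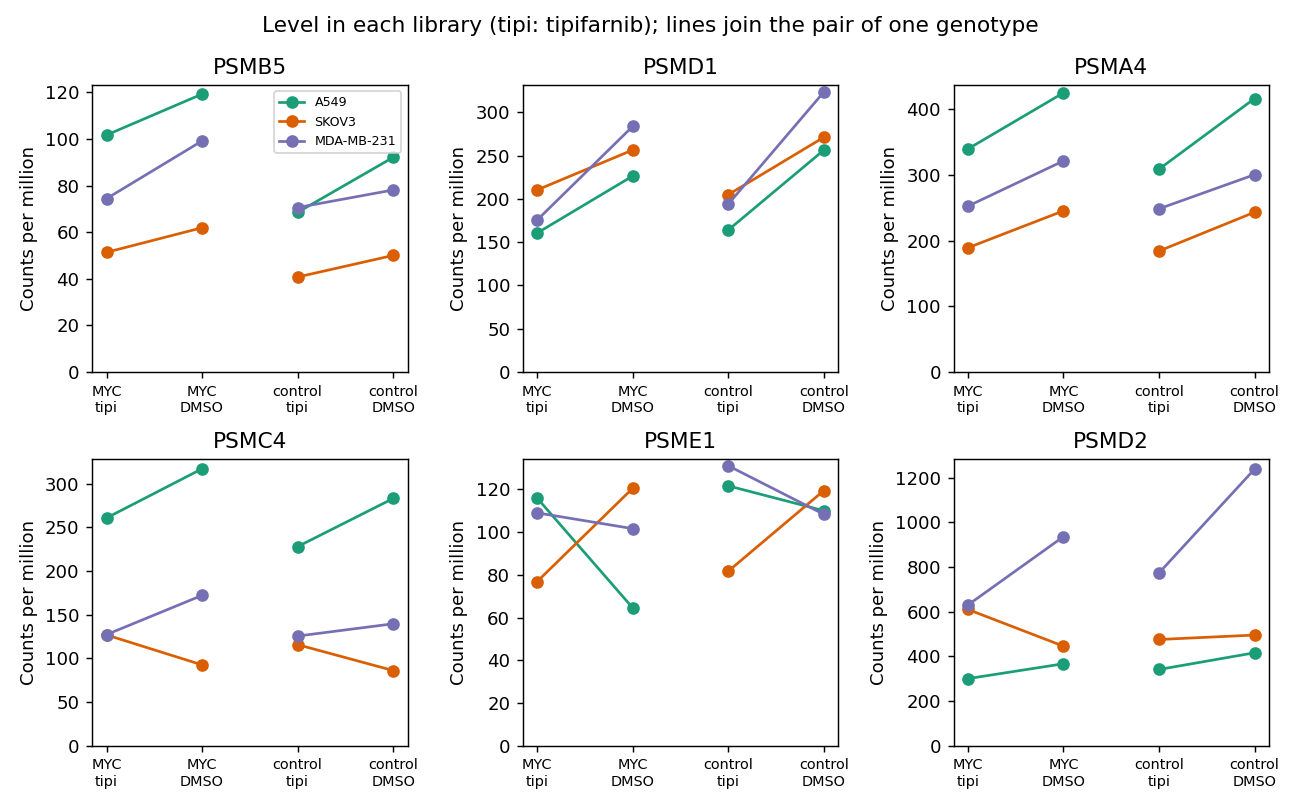
CPM (y axis, from 0) of 6 proteasome genes in each of the 12 libraries, by genotype and treatment (x axis), with lines joining the tipifarnib and DMSO libraries of 1 genotype. PSMB5, PSMD1 and PSMA4 are lower with tipifarnib in every pair, while PSMC4 and PSME1 move in opposite directions between lines.

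In the model that gave each line its own effects, tipifarnib lowered 4 genes in A549, PSMD12 (-0.59 ± 0.11), PSMD1 (-0.57 ± 0.11), PSMC3 (-0.49 ± 0.13) and PSMD11 (-0.46 ± 0.10), which is 11.8% against 4.47% of all genes tested. It raised 0 (3.56% of all genes tested). The median over the 34 genes in A549 was -0.28, and 30 of 34 were negative. The count was 1 without MDA-MB-231, and DESeq2 called 10 lower and 1 higher. Of all genes tested 544 passed without MDA-MB-231, against 1373 with all lines, and DESeq2 called 977 lower and 836 higher.

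In MDA-MB-231 tipifarnib lowered 9 of 34 genes (26.5%, against 12.1% of all genes tested) and raised 0 (10.6% of all genes tested). The most changed were PSME3 (-0.77 ± 0.11, adjusted p = 0.00183), PSMD1 (-0.72 ± 0.11), PSMC6 (-0.62 ± 0.11), PSMD2 (-0.62 ± 0.13), PSMC3 (-0.53 ± 0.13) and PSMD12 (-0.53 ± 0.11), with PSMB2, PSMD11 and PSMC5 after them. PSME3 had 266 and 285 CPM with tipifarnib against 501 and 443 CPM with DMSO, MYC cells first. PSMC6 had 93.5 and 97.5 CPM with tipifarnib against 150 and 143 CPM with DMSO. PSMD2, a cap base scaffold like PSMD1, had the values given above. In all 3 genes the tipifarnib and DMSO libraries did not overlap in this line. The median was -0.26 and 30 of 34 were negative.

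SKOV3 gave a mixed picture. Tipifarnib lowered 3 genes (8.82%, against 7.48% of all genes tested), PSME1 (-0.60 ± 0.16), PSMA3 (-0.43 ± 0.11) and PSMA4 (-0.39 ± 0.11), and raised 1 (2.94%, against 6.57% of all genes tested), PSMC4 (0.44 ± 0.11). The median was -0.04 and 13 of 34 values were positive. Without MDA-MB-231 1 gene passed, and without A549 5 did. Of all genes tested 1740 and 2942 passed in these 2 fits, against 2401 with all lines.

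PSMC4 and PSME1 were the genes whose response to tipifarnib differed between the lines (2 of 34, 5.88%, against 7.69% of all genes tested, by an F test of the line differences). PSMC4, an ATPase, had 127 and 116 CPM with tipifarnib in SKOV3 against 92.6 and 86.2 CPM with DMSO, MYC cells first. It had 261 and 228 CPM with tipifarnib against 317 and 283 CPM with DMSO in A549, and 127 and 126 CPM with tipifarnib against 172 and 140 CPM with DMSO in MDA-MB-231 (adjusted p = 0.0318). PSME1, whose product forms the interferon-inducible PA28 cap with PSME2, had 76.8 and 81.7 CPM with tipifarnib against 120 and 119 CPM with DMSO in SKOV3. In A549 PSME1 had 116 and 122 CPM with tipifarnib against 64.5 and 110 CPM with DMSO, and in MDA-MB-231 it had 109 and 131 CPM against 102 and 108 CPM (adjusted p = 0.0359). PSME1 was thus lower with tipifarnib in both SKOV3 pairs and higher in the other 4, with the largest A549 difference resting on 1 DMSO library of MYC cells. Neither gene passed without SKOV3 or without MDA-MB-231, where the count was 0, and it was 4 without A549. Of all genes tested 306 passed without SKOV3, 118 without MDA-MB-231 and 1764 without A549, against 1314 with all lines.

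MYC by line passed for 2 genes in A549 (5.88%, against 9.94% of all genes tested), PSMB5 at 0.47 ± 0.12 (adjusted p = 0.0224) and PSMA5 at 0.40 ± 0.11 (adjusted p = 0.0357), and 0 fell (7.8% of all genes tested). PSMA5 had 140 CPM in MYC cells against 106 CPM in control cells with tipifarnib, and 169 CPM in MYC cells against 130 CPM in control cells with DMSO. The count was 1 without MDA-MB-231, where 2305 of all genes tested passed, against 3034 with all lines. In SKOV3 0 passed (4.58% of all genes tested rose and 4.5% fell), with 2 at an unadjusted p under 0.05, and in MDA-MB-231 0 passed (0.813% rose and 0.831% fell), with 4 at an unadjusted p under 0.05. The smallest p in SKOV3 were those of PSMB5 (0.32 ± 0.12, adjusted p = 0.134) and PSME2 (0.37 ± 0.16, adjusted p = 0.205), and in MDA-MB-231 those of PSMA5 (0.33 ± 0.11, adjusted p = 0.149) and PSME4 (0.30 ± 0.11, adjusted p = 0.182). The response to MYC differed between lines for 0 of 34 genes (3.07% of all genes tested), with 0 at an unadjusted p under 0.05.

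Most proteasome genes varied more between lines than with tipifarnib or MYC. Line accounted for a median of 64.4% of the variance of the log2 level over the 12 libraries, tipifarnib for 8.86% and MYC for 2.49%, and line took most of it in 22 of 34 genes. These are raw shares of the sum of squares, and unrelated values would also give each factor a share. Line splits the libraries more finely, so its share would be the larger there too. Shares over all genes were not computed, and the median shares of tipifarnib and MYC are no evidence of an effect. PSMD1 was the opposite case, with 14.3% for line and 75.6% for tipifarnib, and PSMC5 had 24.3% and 53.5%. The calls between lines were frequent. In both comparisons of SKOV3 the share lower in SKOV3 was above that of all genes tested. Every other share was below that of all genes tested, and the differences between shares were not tested. SKOV3 against A549 gave 8 higher and 12 lower (23.5% and 35.3%, against 28.5% and 29.6% of all genes tested), MDA-MB-231 against A549 gave 6 and 6 (17.6% each, against 26.9% and 30.4%), and SKOV3 against MDA-MB-231 gave 6 and 14 (17.6% and 41.2%, against 32.3% and 29.3%).

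**Figure D5:**
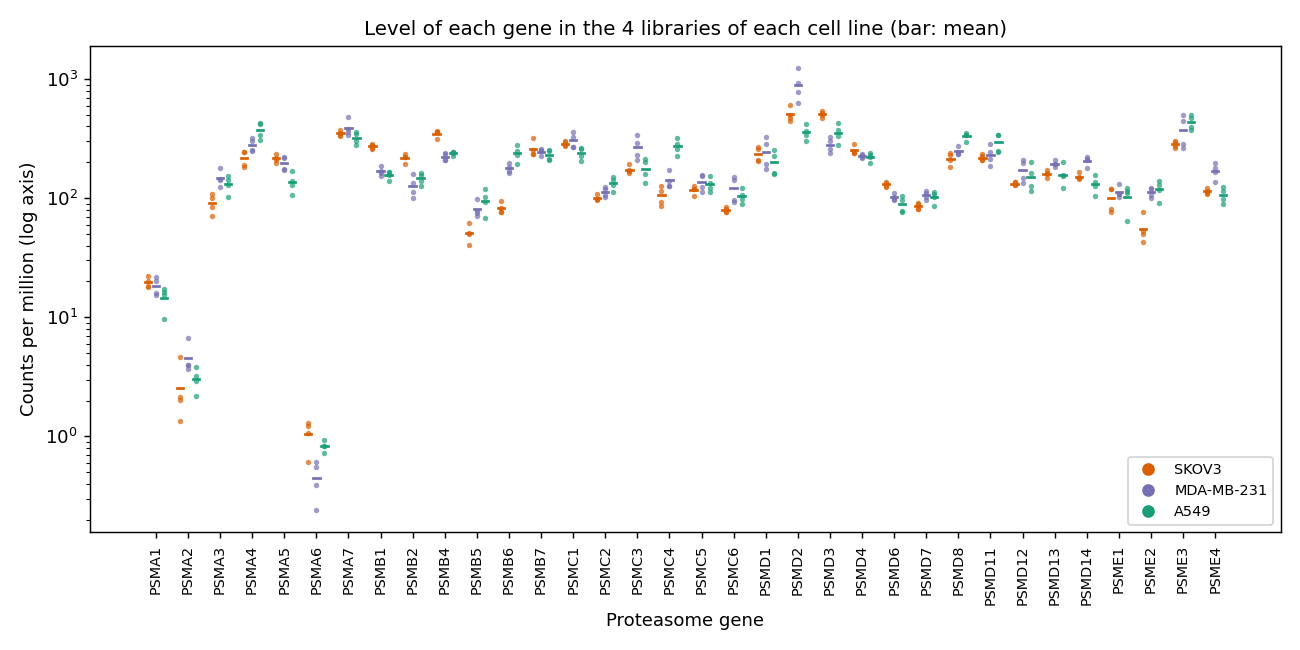
CPM (y axis, log scale) of each of the 34 proteasome genes (x axis) in the 4 libraries of each line, with a bar at the mean of the 4. PSMB6, PSMC4 and PSME2 lie lowest in SKOV3, PSMD2 lies highest in MDA-MB-231, and PSMA1, PSMA2 and PSMA6 lie far below the others in all 3 lines.

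The beta ring was not uniform across lines, with PSMB6 and PSMB5 lowest in SKOV3 and PSMB1, PSMB2 and PSMB4 highest there, while PSMB7, the remaining catalytic subunit, passed in none of the 3 line comparisons (0.17 ± 0.12 in SKOV3 against A549). PSMB6 averaged 82.7 ± 8.8 CPM in SKOV3, 178 ± 15 CPM in MDA-MB-231 and 238 ± 34 CPM in A549 (SD, n = 4 libraries of different genotype and treatment), and was lower in SKOV3 than in A549 (log2 fold change -1.52 ± 0.11) and than in MDA-MB-231 (-1.11 ± 0.11). PSMB5 was also lower in SKOV3, at 51.0 ± 8.7 CPM, than in A549, at 95.4 ± 21.2 CPM (-0.89 ± 0.10). The structural subunits PSMB1, PSMB2 and PSMB4 were higher in SKOV3 than in A549, by 0.79 ± 0.09, 0.58 ± 0.10 and 0.55 ± 0.09 on the log2 scale. PSMA5 (0.68 ± 0.11) and PSMD6 (0.57 ± 0.11) completed the 4 largest increases, and PSMC4 (-1.36 ± 0.16) and PSME2 (-1.12 ± 0.18) the decreases.

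MDA-MB-231 stood out through PSMD2, at 895 ± 261 CPM against 356 ± 48 CPM in A549 (SD, n = 4 each, log2 fold change 1.31 ± 0.18, adjusted p = 0.000161). PSME4, the PA200 cap, at 0.68 ± 0.11, PSMD14, the deubiquitinase of the lid, at 0.65 ± 0.11, and PSMC3, at 0.58 ± 0.13, were next. PSMC4 (-0.95 ± 0.16), PSMD8 (-0.42 ± 0.12), PSMB6 (-0.41 ± 0.11) and PSMA4 (-0.40 ± 0.09) were lower. Against MDA-MB-231, SKOV3 was higher in PSMD3 (0.86 ± 0.10), PSMB2 (0.81 ± 0.10), PSMB1 (0.69 ± 0.09) and the poorly counted PSMA6 (1.22 ± 0.37), and lower in PSMB6, PSME2 (-1.03 ± 0.18), PSMD2 (-0.78 ± 0.18) and the poorly counted PSMA2 (-0.91 ± 0.33). PSMD3 had 504 and 522 CPM in MYC cells and 472 and 535 CPM in control cells of SKOV3, tipifarnib before DMSO. In the RefSeq gene order it lies 8 protein-coding genes from ERBB2, which stood at 1169 to 5747 CPM in SKOV3, and whether this neighbourhood bears on its level was not tested.

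Genes that make, feed or regulate the proteasome moved in several directions with tipifarnib. Over both genotypes 4.66% of all genes tested rose and 6.63% fell, with a median of 0.00. Of 10 genes of the NFE2L1 pathway 3 rose and 0 fell, with a median of 0.36 over the 10. Those that rose were small MAF partners, MAFF (1.29 ± 0.26), MAFK (0.75 ± 0.16) and MAFG (0.44 ± 0.10). MAFF had 24.6, 53.2 and 105 CPM with tipifarnib against 14.6, 9.42 and 50.2 CPM with DMSO in MYC cells, and 15.8, 58.8 and 117 CPM with tipifarnib against 7.87, 21.4 and 50.4 CPM with DMSO in control cells (adjusted p = 0.0134). NFE2L1 was at 0.39 ± 0.12 (adjusted p = 0.0683) over the 3 lines, and by line it passed in MDA-MB-231 (0.49 ± 0.15) and SKOV3 (0.66 ± 0.15), not in A549. In the comparison over both genotypes 30 of the 34 proteasome genes had negative values.

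Of 6 genes of the p97 unfoldase, which extracts ubiquitinated proteins for the proteasome, 1 fell and 0 rose, with a median of -0.12, where 6.63% of all genes tested fell. It was VCP, p97 itself (-0.43 ± 0.09, adjusted p = 0.0178), with 563, 693 and 373 CPM with tipifarnib against 714, 757 and 586 CPM with DMSO in MYC cells, and 472, 686 and 386 CPM against 685, 886 and 576 CPM in control cells. Of 6 ubiquitin and E1 genes 1 fell, the E1 enzyme UBA1 (-0.31 ± 0.08, adjusted p = 0.0367), and of 9 assembly chaperones 1 fell, PSMD5 of the cap base (-0.42 ± 0.10, adjusted p = 0.0248). In 8 other proteins of the particle 0 passed, where UCHL5 (-0.30 ± 0.10, adjusted p = 0.0884) and UBE3C (-0.23 ± 0.10, adjusted p = 0.151) had the smallest p and 2 had an unadjusted p under 0.05. In 6 shuttle receptors 0 passed, and RAD23B (-0.17 ± 0.09, adjusted p = 0.252) and UBQLN4 (0.15 ± 0.08, adjusted p = 0.283) had the smallest p.

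The 3 immunoproteasome genes, which replace the catalytic subunits under interferon, gave 0 calls over the 3 lines (PSMB10 at 0.37 ± 0.29 and PSMB8 at 0.33 ± 0.27), but their response was not the same in each line. Tipifarnib changed PSMB8 by 1.24 ± 0.23 in A549 (adjusted p = 0.0164), by 0.34 ± 0.22 in MDA-MB-231 and by -0.53 ± 0.21 in SKOV3. In A549 PSMB8 had 25.3 and 24.2 CPM with tipifarnib against 6.95 and 15.1 CPM with DMSO, MYC cells first. The larger A549 difference thus rested on the DMSO library of MYC cells, as for PSME1. The differences between lines passed for PSMB8 (adjusted p = 0.0269) and PSMB9 (adjusted p = 0.0393), as they did for PSME1 and for 7.69% of all genes tested.

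With MYC, where 4.5% of all genes tested rose and 2.84% fell, 2 of 9 assembly chaperones rose and 0 fell, with a median of 0.20. They were PSMG4 (0.63 ± 0.09, adjusted p = 0.00937) and PSMG1 (0.44 ± 0.11), which help to build the alpha ring. PSMG4 had 28.5, 48.3 and 28.7 CPM in MYC cells against 18.7, 30.8 and 19.9 CPM in control cells with tipifarnib, and 33.1, 51.9 and 29.8 CPM against 18.9, 30.2 and 22.1 CPM with DMSO. RPS27A, which encodes ubiquitin fused to a ribosomal protein, also rose (0.48 ± 0.08). The deubiquitinase UCHL5 (0.41 ± 0.10) rose among 8 other proteins of the particle, and the protease DDI2 (0.46 ± 0.12) was the 1 gene that rose among 6 shuttle receptors and among 10 genes of the NFE2L1 pathway, being on both lists. In the p97 list 0 of 6 passed, where NPLOC4 (-0.20 ± 0.10) and UFD1 (-0.15 ± 0.11) had the smallest p, and among the immunoproteasome genes 0 of 3 passed over the lines, where PSMB10 was at -0.59 ± 0.29 and PSMB9 at -0.47 ± 0.33. In MDA-MB-231 alone PSMB9 fell (-1.42 ± 0.25, adjusted p = 0.032).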

How the data were processed

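Per the labels' protocols RNA was extracted with RNeasy and made into libraries by a SMARTER mRNA-Seq kit. Per the submitters' processing notes reads were handled with TopHat2, HTSeq and DESeq2 on hg19, with no versions. The authors deposited raw read counts per gene in 1 table with 12 library columns. Its 5 HTSeq summary rows held 17.5% to 19.9% of a library and were left out. Of 57820 rows 51996 were paired with a symbol. The 35 members and all lists were chosen with earlier results of these data known.

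Genes were tested with edgeR 4.0.16 (R 4.3.3), TMM scaling, filterByExpr and the quasi-likelihood test, and p-values were adjusted by Benjamini-Hochberg over 17096 genes with a threshold of 0.05. One model had line and group (6 residual degrees of freedom) and another separate effects of MYC and of tipifarnib in each line (3 residual degrees of freedom), for 18 comparisons. The line is the replicate block, since same-numbered libraries come from 1 line. Their deviations from the group mean correlated at 0.824 to 0.935, against -0.555 to -0.322 between lines. Each group holds 1 library per line, so subtracting its mean by itself pushes values between lines below 0. The figures show only that libraries of 1 line resemble each other, and the labels are the ground for the block. In simulated counts the share of false calls ran above the threshold in all models, so calls just under it are less certain. Alternatives were DESeq2 1.42.0, its size factors, limma 3.58.1 (voom), no filter, no block and leaving out a line.

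Named genes were MYC, the catalytic subunits, up to 6 passing members in each direction, the extremes of each role group, the 4 largest line differences each way and up to 4 passing genes of each list, or otherwise the 2 with the smallest p. A result of the ubiquitin and E1 list with MYC is not reported here. Values of other members were added after they were seen.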

Additional observations from a re-analysis of the deposited data

Results flagged for a closer look

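Single libraries stood apart in 6 of 68 sets of 6 pair ratios, each by a gap to the nearest pair above Dixon's critical value for 6 values, which chance exceeds in about 1 in 20 sets. PSMA1, whose counts are low and uncertain, had a MYC log2 ratio of -0.7532 in A549 with DMSO and a tipifarnib log2 ratio of 0.8227 in A549 MYC cells. Both share the library of A549 MYC cells with DMSO. PSME1 had a MYC log2 ratio of -0.7699 in A549 with DMSO, which uses that library too. PSMB6 had a MYC log2 ratio of -0.1088 in SKOV3 with DMSO, PSMD2 a MYC log2 ratio of 0.3595 in SKOV3 with tipifarnib, and PSME3 a MYC log2 ratio of -0.1038 in MDA-MB-231 with tipifarnib.

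The response to tipifarnib differed between the 3 lines for PSMC4 (F test, adjusted p = 0.03185) and PSME1 (adjusted p = 0.03593). The log2 fold change of PSMC4 was 0.44 in SKOV3 and -0.30 in each of the other 2 lines, and that of PSME1 was -0.60 in SKOV3, 0.49 in A549 and 0.19 in MDA-MB-231. The dose in A549 was not that of the other lines, and dose and line cannot be told apart.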

How the results depend on the processing

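No proteasome gene that passed changed direction under an alternative, while some that did not pass turned sign. For tipifarnib over both genotypes, where 5 genes passed, 12 passed with DESeq2, 12 with limma-voom, 3 with no low count filter, 0 with no replicate block and 14 with each line's own effects. For MYC over both treatments, where 1 passed, the counts were 4, 2, 0, 0 and 3. Over all genes tested the tipifarnib counts in this order were 2997, 2454, 2064, 0 and 4935, where 1929 passed with the settings of the Results. Those for MYC were 2405, 1793, 1648, 0 and 4158, where 1256 passed with the settings of the Results. For tipifarnib in control cells 4 passed with DESeq2 and 0 with no replicate block, in MYC cells 3 with DESeq2, in A549 11 with DESeq2 (10 lower, 1 higher), and for the differences between lines 6 with DESeq2 and 5 with no low count filter. Over all genes tested these counts were 1155, 0, 1021, 1813, 2217 and 3198. Leaving out a line gave 0 to 5 for tipifarnib over both genotypes, 0 for MYC over both treatments, 0 for tipifarnib in control cells, 1 to 4 in A549, 1 to 5 in SKOV3, 1 to 2 for MYC in A549 and 0 to 4 for the differences between lines. Over all genes tested the ranges in this order were 87 to 1174, 10 to 148, 0 to 23 and 544 to 1381. The last 3 were 1740 to 2942, 2305 to 3024 and 118 to 1764. Over the alternatives 25 (without A549) to 31 (without SKOV3) of 34 tipifarnib values over both genotypes were negative, and 25 to 27 of 34 MYC values over both treatments were positive. Scaling by DESeq2's size factors left 29 tipifarnib values negative. The causes were not tested, but leaving out a line removes 4 of 12 libraries. With 1 library per line and group, effects of the size of the interaction estimates were not detectable.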
